A study of Homo sapiens with 4 samples.

Results

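The genes described here are 36 components of macroautophagy and its cargo receptors, found by gene symbol from a list that was drawn up with earlier results of these data known, with no measured value in the rule. All 36 were found among the 16376 genes of the deposited table. They fall into 7 classes by role, namely 5 genes of the ULK initiation complex, 5 of membrane supply and lipid transfer, 7 of the phosphatidylinositol 3-kinase complex and the WIPI proteins, 8 of the conjugation machinery and its ATG4 proteases, 5 of the LC3 and GABARAP family, 5 cargo receptors, and the tethering factor EPG5.

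Macroautophagy encloses part of the cytoplasm in a double membrane, the autophagosome, and delivers it to the lysosome for breakdown. The ULK kinase complex starts the process, a lipid kinase marks the forming membrane, ATG9 vesicles and lipid transfer proteins let it grow, and a ubiquitin-like conjugation system attaches LC3 and GABARAP proteins to it, which in turn hold cargo receptors such as SQSTM1 (p62). Growth factor signalling through AKT and the mTORC1 kinase restrains the ULK complex, and much of autophagy is regulated through protein modification, so the abundance of these transcripts is not a measure of autophagic flux.

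RNA was sequenced from LASCPC-01, a neuroendocrine prostate cancer (NEPC) cell line that was made with NMYC and activated AKT1, alleles which the treated and the control cells therefore share. The control group was given PBS and the other group fluoxetine, an antidepressant that blocks serotonin reuptake, with 2 libraries in each group (n = 2). The labels give day 3 for all 4 libraries and no dose, and the titles of the fluoxetine libraries also carry the letters PP. Nothing states whether the libraries came from separate cultures. The p-values therefore rest only on the spread between these libraries, which the test of single genes pools in part over genes. Values are FPKM as deposited by the authors, that is, the fragment number of a gene divided by gene length and by library depth.

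The depth by which the authors divided could be recovered from the FPKM, and ranged from 32873603 to 34831389 fragments per library. At that depth each of the 36 genes had between 194 and 9242 reads in a library, and 7 of them had under 500 in at least 1 library. Libraries of a group correlated at 0.993 (PBS) and 0.994 (fluoxetine) over the log2 values of all genes tested. MYCN (NMYC), with which the line was made, was at 323 to 387 FPKM. The neuroendocrine marker NCAM1 was at 44.3 to 52.0 FPKM, whereas the neuroendocrine markers CHGA and NEUROD1 were below 0.1 FPKM in every library and SYP was between 0.142 and 0.629 FPKM. The summed FPKM was 1.98 to 3.14 for the 6 fibroblast markers and 2.78 to 4.14 for the 5 leukocyte markers analysed. For the 4 endothelial markers it was 0.110 to 0.220. Most of the fibroblast sum was COL1A1 at 1.83 to 2.75 FPKM, and most of the leukocyte sum was CD68 at 2.74 to 3.97 FPKM. PTPRC, CD3E, PECAM1 and PDGFRB stayed below 0.05 FPKM. The part of such cells in the results was not tested.

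The 36 transcripts spanned a wide range of levels under PBS. GABARAP, a ubiquitin-like protein of the autophagosome membrane, was the highest at 189 ± 1.88 FPKM (SD, n = 2), and the next, GABARAPL2, was at 35.7 ± 3.17 FPKM with no overlap between the libraries of the 2 genes. ATG101, a subunit of the ULK complex, followed at 35.3 ± 0.182 FPKM, within the range of GABARAPL2. The cargo receptor TAX1BP1 at 33.2 ± 0.794 FPKM did not overlap ATG101, while BECN1, a subunit of the lipid kinase complex, at 31.3 ± 1.64 FPKM and the protease ATG4B at 30.4 ± 1.77 FPKM overlapped each other. At the lower end stood the PI3P-binding protein WIPI1 at 1.67 ± 0.289 FPKM, the conjugating enzyme ATG10 at 1.16 ± 0.159 FPKM and the kinase ULK2 at 1.16 ± 0.0343 FPKM, and the last pair could not be separated.

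**Figure D1:**
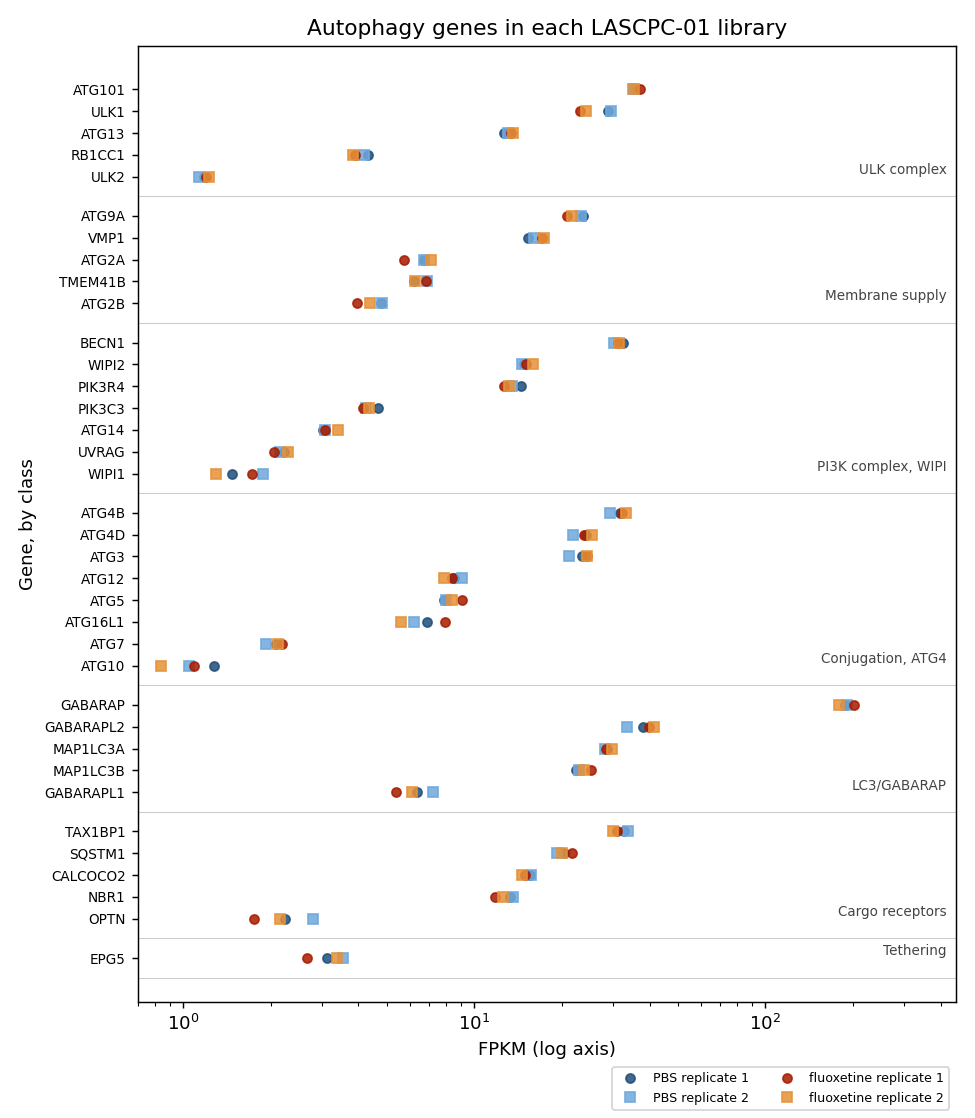
FPKM (log axis) of the 36 autophagy genes in the 4 libraries, with genes grouped by class, blue marks for PBS, red and orange marks for fluoxetine, and circles and squares for replicates 1 and 2. GABARAP stands apart on the right at 178 to 201 FPKM, and for most genes the 4 marks lie close together, with ULK1 among the genes whose groups are separated.

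None of the 36 genes passed the test for a difference between fluoxetine and PBS. With limma on log2(FPKM + 0.1) and Benjamini-Hochberg adjustment over the 12663 genes tested, 0 of 36 had an adjusted p under 0.05, where 0.237% of all genes tested did (27 lower, 0.213%, and 3 higher, 0.0237%, under fluoxetine). The adjusted p-values of the 36 genes ran from 0.249 to 0.9996 (limma). At an unadjusted p under 0.05 there were 3, ULK1, OPTN and GABARAPL2, against 8.51% of all genes tested. A count model, limma voom on the reads recovered from the FPKM, called 1 of the 36, ULK1 (limma voom adjusted p = 0.0465). Over all genes that model called 75 (64 lower and 11 higher), against 30 by the main test.

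The differences were small in both directions. The log2 differences, fluoxetine minus PBS, were negative for 18 genes and positive for 18, with a median of 0.00047 beside -0.021 for all genes tested, and ran from -0.35 (OPTN) to 0.19 (GABARAPL2). For 30 of the 36 genes the difference was under 0.15 in size. The 95% interval covered 0 for 33 genes and lay wholly between -0.5 and 0.5 for 33 genes, and the widest limits were -0.71 and 0.44. In 11 genes both fluoxetine values lay below both PBS values (24.8% of all genes tested) and in 11 both lay above (16.7% of all genes tested), so that 22 did not overlap (41.6% of all genes tested) and 14 did. After rescaling to TPM, by which the median of all genes tested became -0.069, the split was 23 negative and 13 positive, with 13 genes entirely below PBS (32.7% of all genes tested in TPM) and 6 entirely above (10.8%).

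**Figure D2:**
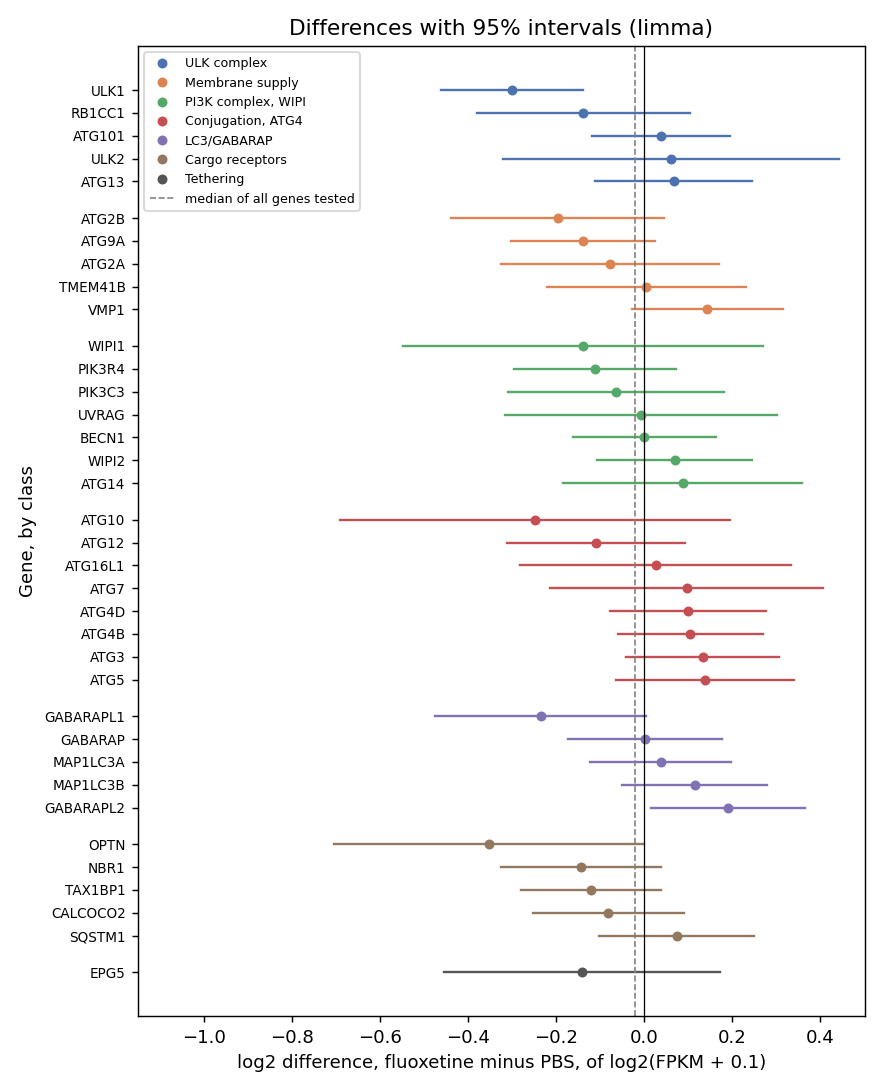
Difference of mean log2(FPKM + 0.1), fluoxetine minus PBS, for each of the 36 genes (points) with its 95% interval from limma (bars), coloured by class, where the dashed line is the median of all genes tested (-0.021). The intervals of ULK1, OPTN and GABARAPL2 do not reach 0, and that of ULK1 runs from -0.46 to -0.14.

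Within the ULK complex, which starts autophagosome formation, the lowest value relative to PBS was that of its catalytic subunit. ULK1, the serine/threonine kinase that AMPK and mTORC1 phosphorylate, had 28.9 and 29.5 FPKM under PBS and 23.2 and 24.2 FPKM under fluoxetine, from at least 4346 reads in each library. Both fluoxetine values lay below both PBS values by more than the spread within either group. The group means were 29.2 ± 0.445 and 23.7 ± 0.730 FPKM (SD, n = 2), a log2 difference of -0.30 (SE 0.074, 95% interval -0.46 to -0.14, limma adjusted p = 0.249). Over the alternatives of processing its adjusted p ran from 0.0465 to 0.975, the lowest from limma voom on the recovered reads (log2 difference -0.29), and with any 1 library left out the difference lay between -0.33 and -0.27. In RNA from bulk cells, fewer cells with the transcript and less of it per cell cannot be told apart. ULK1 lies at chr12:131894651-131923167 on the plus strand of GRCh38 and shares exon bases with no other gene of the table.

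The other subunits did not differ beyond their error. RB1CC1 (FIP200), the scaffold of the complex, had 4.30 and 4.19 FPKM under PBS and 3.89 and 3.82 FPKM under fluoxetine, a log2 difference of -0.14 (SE 0.11, limma adjusted p = 0.712) with no overlap between the groups. The adaptor ATG13, which links the kinase to the scaffold, gave 0.067 and its partner ATG101 gave 0.037 on the same log2 scale. ULK2, the paralog of ULK1, gave 0.060 with an interval of -0.32 to 0.44, the upper limit of which was the highest among the 36 genes. The ratio of ULK1 to ULK2 within a library, which does not depend on how the library was scaled, was 4.61 and 4.70 on the log2 scale under PBS and 4.28 and 4.30 under fluoxetine. The groups did not overlap, and the difference of -0.37 had the smallest p that 2 against 2 libraries allow (two-sided exact permutation test, p = 0.333, and 0.5 after adjustment over the 6 ratios and shares tested).

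Genes that supply membrane showed values on either side of PBS. ATG2B, one of the lipid transfer proteins that bridge the endoplasmic reticulum and the growing membrane, had 4.80 and 4.80 FPKM under PBS and 3.97 and 4.39 FPKM under fluoxetine, a log2 difference of -0.20 (SE 0.11, limma adjusted p = 0.615). VMP1, a lipid scramblase of the endoplasmic reticulum, had 15.3 and 16.0 FPKM under PBS and 17.1 and 17.4 FPKM under fluoxetine, a difference of 0.14 (SE 0.079, limma adjusted p = 0.613). The groups did not overlap for either gene, the first lying below PBS and the second above. ATG9A, the scramblase carried by small vesicles, also lay entirely below PBS (-0.14, interval -0.30 to 0.024), whereas ATG2A and TMEM41B overlapped, and the fluoxetine libraries of ATG2A stood apart at 5.73 and 7.09 FPKM. The log2 ratio of ATG2A to ATG2B was 0.49 in both PBS libraries and 0.53 and 0.69 under fluoxetine (exact permutation p = 0.333, adjusted 0.5).

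The class III phosphatidylinositol 3-kinase, which makes the lipid PI3P on the forming membrane, showed no call among its subunits. BECN1, its regulatory subunit, had 32.5 and 30.2 FPKM under PBS and 31.2 and 31.4 FPKM under fluoxetine, and its log2 difference of -0.0005 had an interval of -0.16 to 0.16. The largest differences in this class were those of WIPI1 and PIK3R4. PIK3R4, the pseudokinase that anchors the complex, had 14.5 and 13.4 FPKM under PBS and 12.7 and 13.1 FPKM under fluoxetine (-0.11, SE 0.084, limma adjusted p = 0.690). WIPI1, which binds PI3P, had 1.47 and 1.87 FPKM under PBS and 1.72 and 1.296 FPKM under fluoxetine, and the groups overlapped (-0.14, SE 0.19, limma adjusted p = 0.837). The catalytic subunit PIK3C3 gave -0.064, the alternative subunits ATG14 and UVRAG gave 0.087 and -0.0080, and WIPI2, which recruits the conjugation machinery, gave 0.069. The log2 ratio of WIPI1 to WIPI2 overlapped between the groups (exact permutation p = 0.667).

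In the conjugation machinery, 6 of the 8 genes had a positive difference, and 4 lay entirely above PBS, where 16.7% of all genes tested did. Over the settings the class median of 0.097 ran from 0.033 without PBS replicate 2 to 0.14 without PBS replicate 1. It was 0.052 in TPM. With a length trend removed it was 0.099 on reference gene lengths and 0.062 on the lengths implied by the FPKM. ATG5, which is joined to ATG12 to form part of the ligase for LC3, had 7.86 and 8.01 FPKM under PBS and 9.09 and 8.39 FPKM under fluoxetine (0.14, SE 0.093, limma adjusted p = 0.661). ATG10, the enzyme that attaches ATG12 to ATG5, had 1.27 and 1.05 FPKM under PBS and 1.09 and 0.838 FPKM under fluoxetine (-0.25, SE 0.20, limma adjusted p = 0.716), from 231 to 331 reads per library. ATG10 thus overlapped between the groups despite the largest difference of its class. ATG3, the conjugating enzyme of LC3 (0.13), ATG7, the activating enzyme of both branches (0.096), and ATG4B, the main protease that trims LC3 and GABARAP (0.10), lay above PBS with intervals that covered 0. ATG4D gave 0.099 and overlapped, ATG12 lay below PBS (-0.11), and ATG16L1, which targets the ligase to the membrane, had the most unequal fluoxetine libraries of the 36 genes at 7.92 and 5.61 FPKM.

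The LC3 and GABARAP family, whose members are lipidated on the autophagosome, held the highest and one of the more separated transcripts. GABARAP had 188 and 191 FPKM under PBS and 201 and 178 FPKM under fluoxetine, so the fluoxetine libraries lay on either side of PBS (log2 difference 0.0014, interval -0.17 to 0.18). MAP1LC3A had 28.5 and 28.1 FPKM under PBS and 28.3 and 29.7 FPKM under fluoxetine (0.037, interval -0.12 to 0.20). MAP1LC3B, the form most used as an autophagosome marker, had 22.3 and 22.9 FPKM under PBS and 25.2 and 23.8 FPKM under fluoxetine (0.11, SE 0.076, limma adjusted p = 0.653). The values of MAP1LC3B lay above PBS without overlap, and they are uncertain because the near-identical gene MAP1LC3B2, at 3.64 and 2.005 FPKM under PBS and 2.92 and 1.65 FPKM under fluoxetine, can take reads from it.

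GABARAPL1 and GABARAPL2 lay on opposite sides of PBS. GABARAPL2 (GATE-16) had 37.9 and 33.4 FPKM under PBS and 39.8 and 41.5 FPKM under fluoxetine, a log2 difference of 0.19 (SE 0.080, interval 0.015 to 0.37, limma adjusted p = 0.552). GABARAPL1, a close paralog of GABARAP, had 6.34 and 7.21 FPKM under PBS and 5.39 and 6.09 FPKM under fluoxetine, a difference of -0.24 (SE 0.11, interval -0.47 to 0.0037, limma adjusted p = 0.579). Neither gene overlapped between the groups, and for GABARAPL2 the 2 PBS libraries differed from each other by more than PBS replicate 1 differed from the nearer fluoxetine library. The log2 ratio of GABARAPL1 to GABARAPL2, a quantity added after the values were seen and not tested, was -2.58 and -2.21 under PBS and -2.88 and -2.77 under fluoxetine. As a share of the summed FPKM of the family, GABARAPL1 made up 2.24 and 2.55% under PBS and 1.80 and 2.18% under fluoxetine (exact permutation p = 0.333, adjusted 0.5), and GABARAP 66.4 and 67.5% against 67.1 and 63.8%. The log2 ratio of MAP1LC3A to MAP1LC3B overlapped between the groups (exact permutation p = 0.667).

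Of the 5 cargo receptors, 4 lay entirely below PBS and 0 entirely above, where 24.8% and 16.7% of all genes tested did. Over the settings the class median of -0.12 ran from -0.17 in TPM to -0.051 with a length trend removed on reference gene lengths. It was -0.083 with the trend removed on implied lengths. The exception was SQSTM1 (p62), the receptor for ubiquitinated proteins that is itself degraded by autophagy, with 20.4 and 19.2 FPKM under PBS and 21.7 and 19.98 FPKM under fluoxetine (0.073, SE 0.081, interval -0.10 to 0.25, limma adjusted p = 0.794). OPTN, a receptor for damaged mitochondria and bacteria, had 2.24 and 2.80 FPKM under PBS and 1.75 and 2.14 FPKM under fluoxetine, from 221 to 353 reads per library. Its log2 difference of -0.35 (SE 0.16, interval -0.71 to -0.0015, limma adjusted p = 0.579) was the lowest of the 36 genes, while its 2 PBS libraries differed by 0.31 on the same scale.

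The remaining receptors had narrower intervals. NBR1, a receptor for protein aggregates and peroxisomes, had 13.3 and 13.6 FPKM under PBS and 11.8 and 12.5 FPKM under fluoxetine (-0.14, SE 0.083, limma adjusted p = 0.619). TAX1BP1 had 32.6 and 33.7 FPKM under PBS and 31.0 and 29.9 FPKM under fluoxetine (-0.12, SE 0.073, limma adjusted p = 0.624). CALCOCO2 (NDP52), which binds bacteria and mitochondria, had 15.6 and 15.7 FPKM under PBS and 14.9 and 14.6 FPKM under fluoxetine (-0.082, SE 0.079, limma adjusted p = 0.759). In each of these 3 genes the fluoxetine libraries lay below PBS, by differences that did not pass the test. SQSTM1 made up 24.2 and 22.6% of the summed FPKM of the 5 receptors under PBS and 26.8 and 25.2% under fluoxetine, with no overlap (exact permutation p = 0.333, adjusted 0.5). EPG5, which tethers autophagosomes to late endosomes and lysosomes, had 3.11 and 3.53 FPKM under PBS and 2.65 and 3.38 FPKM under fluoxetine, and overlapped (-0.14, SE 0.14, limma adjusted p = 0.774).

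Gene length moved with these differences. Over the 36 genes the log2 difference correlated with the log2 of the gene length implied by the FPKM at r = -0.42 (rho = -0.47, n = 36 genes, which share the same 4 libraries), longer genes having the lower values. Over all genes tested, the deviation from the mean of the 4 libraries correlated with log2 length at -0.28 in fluoxetine replicate 1, against 0.056, 0.19 and 0.046 in PBS replicates 1 and 2 and fluoxetine replicate 2. Over the 36 genes alone the same correlation was 0.31 and 0.32 in PBS replicates 1 and 2 and -0.39 and -0.11 in fluoxetine replicates 1 and 2.

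A length trend was removed from each library in 2 ways. On reference gene lengths, the correlation of the 36 differences with implied length was r = -0.19 (rho = -0.26), and 17 genes were negative and 19 positive. Entirely below PBS lay 8 and entirely above 11 (20.4% and 20.3% of all genes tested in this setting). On the implied lengths themselves, a setting added after the data were seen, it was -0.010, a value near 0 that the removal on the same lengths largely builds in, and 20 genes were negative and 16 positive, with 9 entirely below and 10 entirely above. ULK1 was at -0.25 on both, OPTN at -0.34 on both, GABARAPL1 at -0.24 and -0.27, and GABARAPL2 at 0.16 and 0.098, on reference and implied lengths in turn. The part of length in these values beyond this was not tested.

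Among other genes of the pathway, the 1 call was BNIP3. This receptor of the outer mitochondrial membrane, which binds LC3 and GABARAP proteins and is a known target of HIF1, fell from 96.9 and 87.6 FPKM under PBS to 62.3 and 61.6 FPKM under fluoxetine. The means were 92.3 ± 6.58 and 62.0 ± 0.466 FPKM (SD, n = 2), a log2 difference of -0.57 (SE 0.075, limma adjusted p = 0.00704), where 0.213% of all genes tested were called lower. In TPM, with quantile normalization, with median centring and with either length trend removed, 1 gene of the pathway lists was called, as in the main test. Over the alternatives of processing the limma adjusted p of BNIP3 ran from 1.46e-07 to 0.610. The call was lost with any 1 library left out (limma adjusted p = 0.167 without PBS replicate 1, 0.0978 without PBS replicate 2, 0.0892 without fluoxetine replicate 1 and 0.110 without fluoxetine replicate 2), although the difference stayed between -0.65 and -0.50. Its paralog BNIP3L (NIX) had 16.6 and 15.7 FPKM under PBS and 12.2 and 13.2 FPKM under fluoxetine, a difference of -0.35 (SE 0.085, limma adjusted p = 0.236, and 0.0480 to 0.782 over the alternatives). The other 16 receptors of organelles and ferritin that could be tested were not called, among them PINK1, a kinase that marks damaged mitochondria for removal (0.10).

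The other lists held no call. Of 16 further core genes 13 could be tested, 3 lay entirely below PBS and 1 above (24.8% and 16.7% of all genes tested), and the largest differences of genes with a mean of at least 1 FPKM were those of MAP1LC3B2 (-0.29, interval -0.87 to 0.30) and the inhibitor RUBCN (-0.17, interval -0.38 to 0.031). All 15 genes of autophagosome fusion with lysosomes were tested and 12 of them overlapped, where 58.4% of all genes tested did. Entirely below PBS lay 1 and entirely above 2 (24.8% and 16.7% of all genes tested). The SNARE protein STX17 had 10.998 and 10.9 FPKM under PBS and 8.92 and 10.1 FPKM under fluoxetine (-0.20, SE 0.093, limma adjusted p = 0.579), and its partner VAMP8 gave 0.18 with overlapping groups. In both lists 0 genes had an unadjusted p under 0.05 by limma, and 0 were called by voom.

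Of the 16 transcription factors and upstream regulators 15 had a negative difference, with a median of -0.14, and 10 lay entirely below PBS and 0 above (24.8% and 16.7% of all genes tested), though 0 were called by limma or by voom. The count at an unadjusted p under 0.05 was 4 (8.51% of all genes tested), namely DDIT4, PRKAA1 and, named after their values were seen, FOXO3 and SESN2. DDIT4 (REDD1), an inhibitor of mTORC1, had 136 and 107 FPKM under PBS and 95.8 and 100.2 FPKM under fluoxetine, a log2 difference of -0.30 (SE 0.099, limma adjusted p = 0.464). PRKAA1, the catalytic subunit of AMPK that activates ULK1, had 10.03 and 10.9 FPKM under PBS and 8.42 and 8.87 FPKM under fluoxetine (-0.27, SE 0.092, limma adjusted p = 0.478). FOXO3, a transcription factor that AKT holds in the cytoplasm, gave -0.25 and the stress protein SESN2 -0.24. ATF4, which drives autophagy genes under amino acid shortage, gave 0.0048 with fluoxetine libraries at 80.0 and 72.7 FPKM around PBS at 76.0 and 76.0 FPKM, and TFEB, the lysosomal transcription factor, gave -0.12 with an interval of -0.57 to 0.32.

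Promoters of the 36 genes were read for short sequence motifs, whether or not the groups of a gene were separated. RefSeq promoters of 300 bases (250 before the start and 50 after it, build GRCh38.p14) were matched by symbol for 31 of the 36 genes, which have 38 promoter entries. The motifs searched on both strands were CACGTG, the E-box read by MYC and TFEB family proteins, ACGTG, the core of the hypoxia response element, which is contained in CACGTG, and GTAAACA, the forkhead motif. CACGTG stood in 2 of the 38 promoters, those of ATG3 and ATG14, where 7.26% of all 35116 promoters held it. ACGTG stood in 11 of the 38, among them GABARAPL2, where 21.4% of all promoters held it, and GTAAACA in 1 of the 38, CALCOCO2, where 3.42% did.

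The upstream stretch of the called gene and of the members with the lowest p-value on each side is shown, from 250 to 101 bases before the start, 5′ to 3′ on the gene's strand, with ACGTG and CACGTG in capitals. They are chr12:131894372-131894521 (plus strand) for ULK1, chr16:75566129-75566278 (plus strand) for GABARAPL2 and chr10:131982024-131982173 (minus strand) for BNIP3, all in GRCh38.p14.
ULK1: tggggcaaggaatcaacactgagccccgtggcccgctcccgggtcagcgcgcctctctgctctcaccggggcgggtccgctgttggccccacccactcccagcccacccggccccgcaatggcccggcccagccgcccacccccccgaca
GABARAPL2: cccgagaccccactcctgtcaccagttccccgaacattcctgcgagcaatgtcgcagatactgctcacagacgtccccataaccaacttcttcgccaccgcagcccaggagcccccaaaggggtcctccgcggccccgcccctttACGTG
BNIP3: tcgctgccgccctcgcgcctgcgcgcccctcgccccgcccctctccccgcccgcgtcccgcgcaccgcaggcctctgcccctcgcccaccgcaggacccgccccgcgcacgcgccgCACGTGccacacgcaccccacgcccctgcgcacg
The ULK1 stretch held neither motif, the GABARAPL2 stretch ended with an ACGTG, and the BNIP3 stretch held a CACGTG. A match is a description of letters in this window and says nothing of binding.

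Some values carry a limit of counting. In GENCODE 29, 15 of the 36 genes share exon bases with another gene of the table, in each case on the opposite strand, and whether the authors' counting used strand is not given in the sources used here. The shared bases were 24.3% of the exon bases of WIPI1 (with ARSG), 20.7% of SQSTM1 (with MRNIP), 18.1% of ATG7 (with VGLL4) and 14.97% of ATG4D (with KRI1). OPTN shared 2.86% with CCDC3, which was itself at 0.0091 FPKM. On the same strand, ATG9A shared 38.8% of its exon bases with AC068946.2 and GABARAP 30.5% with AC120057.2, genes that the table does not list under these names and that can still make reads ambiguous in counting. The values of these genes are uncertain to that extent, and GABARAPL1 and GABARAPL2 shared none with a gene of the table.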

How the data were processed

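The submitters' processing notes name fastp, HISAT2, HTSeq and GRCh38; their versions and the gene annotation are not given in the sources used here. A stranded TruSeq mRNA kit is named in the labels, whereas the study's methods name a VAHTS kit, and the study's text gives a shorter exposure than the labels. The authors deposited 1 FPKM value per gene and library, each library matching the labels of 1 sample. The study's methods name a count model, which FPKM cannot enter. Genes whose FPKM averaged 0.1 or more (12663 of 16376) were therefore compared as log2(FPKM + 0.1) by limma 3.58.1 (R 4.3.3), moderated by eBayes with a mean-variance trend. The p-values were adjusted by the Benjamini-Hochberg method over all of these genes, with a threshold of 0.05. Fold changes are on the log2(FPKM + 0.1) scale, which understates those of low genes.

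Reads were recovered as the smallest whole numbers, within 0.004 of a whole number, that gave the FPKM and a gene length whole within 0.002 of a base. This solved 15989 of the 16080 genes above 0 (99.4%), and true reads can be multiples of these. On FPKM simulated from known reads, the same steps returned the exact reads for 93.9% of 1480 genes. The depth was the value that 93 genes shared. Intervals from limma reflect the spread between libraries, pooled in part over genes by eBayes, so they can differ from a gene's own spread. For ULK2 the replicates differed by 0.056 (PBS) and 0.037 (fluoxetine) on the log2 scale, while the SE was 0.175.

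The members and lists were chosen with earlier results of these data known. Full values are given for the 2 members of each class with the largest absolute difference, for the LC3 and GABARAP family and for the cargo receptors. In the other lists they are given for called genes and the 2 largest differences among genes with a mean of at least 1 FPKM. Ratios and shares were compared by two-sided exact permutation tests over the 4 libraries, which cannot go below p = 0.333. Settings changed one at a time were the pseudocount (1, 0.01), the filter (none, or a mean of 1 FPKM), TPM, quantile normalization, median centring, eBayes without trend or robust, a replicate block, removal of a length trend by lowess (span 0.3) on reference lengths, and each library left out. Removal of the trend on implied lengths and limma voom on recovered reads (minimum of 10 over the libraries) were added after the data were seen. The scripts were tested on simulated data. There the main limma test called 0 of 199 genes given a log2 change of 0.3, 115 of 196 given 0.5 and 188 of 198 given 1. In these runs it also called 2, 11 and 14 genes that were given no change, and it called 2 where no gene was changed. Reads were simulated with a set dispersion, the same for every gene, and with no length trend, so these rates need not hold for the real libraries. GABARAPL3 was not analysed here, and the results for some listed genes are not reported here. Gene positions came from GENCODE 29. Python 3.11.15 was used for the remaining steps (matplotlib 3.10.9 for figures, scipy 1.17.1 for permutation tests, pandas 2.3.3 and numpy 2.4.6 for tables).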

Additional observations from a re-analysis of the deposited data

How the results depend on the processing

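The number of all genes called, 30 with the main settings, was 0 without the filter on low values, 16 with quantile normalization, 0 without the variance trend and 75 with voom on recovered reads. It was 8 and 3 without PBS replicate 1 and 2, and 17 and 12 without fluoxetine replicate 1 and 2, where the lone library is taken to vary like the other group. The number of the 36 autophagy genes called was 0 under each setting except voom on recovered reads, where it was 1. The number of other pathway genes called, 1 with the main settings, was 0 without the filter, 0 without the trend, 2 with voom and 0 with any 1 library left out. Rescaling to TPM gave 6 of the 36 genes entirely above PBS (10.8% of all genes tested in TPM) and a median of -0.047. The class medians of the ULK complex (0.037) and of the LC3 and GABARAP family (0.037) became -0.010 and -0.011 in TPM and -0.023 and -0.033 with the trend on implied lengths removed, and that of the second -0.023 on reference lengths. The causes were not tested.

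The labels number the libraries 1 and 2 in each group, and do not say whether equally numbered libraries share a culture or day. The deviations of equally numbered libraries from their group means had a correlation of 0.035 over genes. With 2 libraries a group this value cannot decide whether they were paired. A fit with this number as a replicate block called 64 genes, 0 of them among the 36, and ULK1 had a limma adjusted p of 0.126 (0.0465 to 0.975 over the alternatives).

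Of 612 values of the 36 genes under the alternatives, 577 kept their direction and side of the threshold, 1 newly passed it (ULK1 with voom), and 34, over 11 genes, changed sign. The log2 differences that changed sign were, in TPM, ATG101 -0.010, TMEM41B -0.044, ATG16L1 -0.021, MAP1LC3A -0.011 and GABARAP -0.046. They were UVRAG 0.070 and GABARAP -0.069 with quantile normalization, BECN1 0.026 and UVRAG 0.018 with median centring, and BECN1 0.0077 with voom. With the length trend removed on reference lengths they were BECN1 0.034, PIK3C3 0.053, UVRAG 0.026, MAP1LC3A -0.023 and GABARAP -0.045, and on implied lengths ATG101 -0.034, UVRAG 0.082, MAP1LC3A -0.033 and GABARAP -0.067. With 1 library left out the ranges of those that changed sign were -0.23 to 0.073 for ATG2A, -0.069 to 0.077 for TMEM41B, -0.054 to 0.053 for BECN1, -0.13 to 0.0027 for PIK3C3, -0.085 to 0.069 for UVRAG, -0.33 to 0.054 for WIPI1, -0.22 to 0.27 for ATG16L1, -0.086 to 0.088 for GABARAP and -0.31 to 0.028 for EPG5. BNIP3 lost its call without the filter (adjusted p = 0.610) and without the trend (0.339). With 2 libraries a group, differences of the size seen in the 36 genes were mostly within the error, and a missed threshold does not show that the levels were equal.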
